A study of Mus musculus with 8 samples.

Results

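The genes for the monocyte-attracting chemokines Ccl2, Ccl7, Ccl8 and Ccl12, called ligands here, and for the receptor Ccr2 were followed in CD11b+ myeloid cells of mouse ovarian cancer ascites. These 5 genes, of 22180 with an array feature of their own, were chosen by name for their place in the CCR2 axis, and each was read by 1 feature. The choice was made with earlier results of these data known, and the study had reported Ccl2 and Ccl7 as lower in these cells. Female C57BL/6 mice, 8 weeks old per the methods, carried ID8 cells, a mouse ovarian cancer line, in the peritoneal cavity. One group of 4 mice (replicates 5 to 8) received a neutralizing antibody to the cytokine LIF from day 12, given over 25 days, and 4 control mice (replicates 1 to 4) bore the same tumors. The start day is that of the series description, and the study's text names a later one. The labels call the controls untreated, whereas the methods describe a control IgG. CD11b+ cells were taken from the ascites with magnetic beads, and RNA of each mouse was hybridised to 1 Affymetrix Mouse Gene 2.1 ST array. Levels are log2 intensities after RMA, so 1 unit is a doubling.

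Chemokines are small secreted proteins that direct the movement of leukocytes along a gradient. CCR2 is a G protein-coupled receptor carried by inflammatory monocytes, and its ligands draw these cells out of the bone marrow and into inflamed tissue and tumors, where many mature into macrophages. CCL2 is the best known ligand, and CCL7 and, in the mouse, CCL12 also act on CCR2. CCL7 is also a ligand of CCR1 and CCR3, and mouse CCL8 is known to act through CCR8. The ligand genes lie together in the Ccl cluster of chromosome 11, and Ccr2 lies in a cluster of receptor genes on chromosome 9.

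The start-site windows of Ccl8, Ccl12 and Ccr2 are shown because these were the members with a window available. They were not chosen by their change between the groups. Sequences are from RefSeq (GRCm38.p6) and run from 250 bases before to 50 after the transcript start. The table used held 3 of the 5 members, without Ccl2 and Ccl7. The windows are chr11:82114935-82115234 for Ccl8, chr11:82101595-82101894 for Ccl12 and chr9:124101933-124102232 for Ccr2, all on the plus strand, with the TATA motif TATAAA in capitals.
Ccl8: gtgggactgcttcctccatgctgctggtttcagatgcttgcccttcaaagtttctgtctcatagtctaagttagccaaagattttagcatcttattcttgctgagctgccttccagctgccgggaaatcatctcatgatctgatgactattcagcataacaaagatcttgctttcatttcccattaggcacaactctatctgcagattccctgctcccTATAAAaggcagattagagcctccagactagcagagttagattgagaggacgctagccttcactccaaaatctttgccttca
Ccl12: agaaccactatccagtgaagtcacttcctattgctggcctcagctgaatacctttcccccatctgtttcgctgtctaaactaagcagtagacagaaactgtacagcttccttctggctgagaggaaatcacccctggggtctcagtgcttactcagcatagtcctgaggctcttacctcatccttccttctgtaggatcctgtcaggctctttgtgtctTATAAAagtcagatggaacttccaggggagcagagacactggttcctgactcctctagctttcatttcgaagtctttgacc
Ccr2: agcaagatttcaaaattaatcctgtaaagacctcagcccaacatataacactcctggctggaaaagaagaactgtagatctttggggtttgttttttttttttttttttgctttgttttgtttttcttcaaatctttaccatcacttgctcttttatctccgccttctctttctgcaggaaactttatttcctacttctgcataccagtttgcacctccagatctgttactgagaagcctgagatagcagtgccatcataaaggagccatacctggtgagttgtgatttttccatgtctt
TATAAA stood at positions -32 to -27 in Ccl8 and -31 to -26 in Ccl12, counted from the transcript start, and it was not in the Ccr2 window on either strand. Of 32851 windows of the same length, 13.6% held it. A search of both strands for the STAT motif TTCNNNGAA, the AP-1 motif TGANTCA and the NF-kB motif found no match in the windows of the 3 members, against 8.3%, 7.8% and 8.5% of all windows. The windows of Ccl8 and Ccl12 were identical at 175 of 319 aligned columns (54.9%), against 46.2% for Ccl8 with Ccr2 and 46.0% for Ccl12 with Ccr2.

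All 4 ligand genes were lower in anti-LIF than in control mice, with no overlap between the groups, and Ccr2 was not called. The changes were 3.13-fold for Ccl2, 5.99-fold for Ccl7, 3.38-fold for Ccl8 and 3.79-fold for Ccl12. A gene was called at a Benjamini-Hochberg adjusted p under 0.1 from limma over all genes, and at that threshold 11.0% of all genes were lower and 5.79% higher, or 16.8% in either direction. Among the genes above the median level, which include all 5 members, 20.6% were lower in the same fit. Anti-LIF lay wholly below control for 11.9% of all genes. The median log2 fold change over all genes was 0.03.

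**Figure D1:**
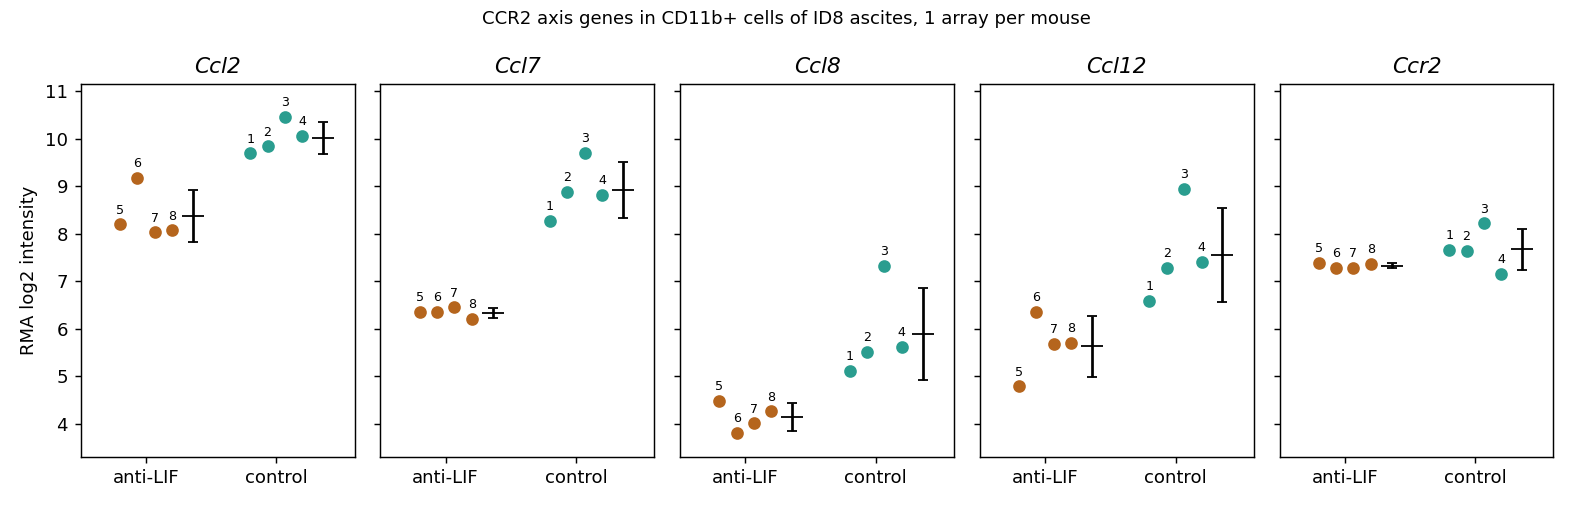
RMA log2 intensity of the 5 CCR2 axis genes, 1 point per mouse with its replicate number, anti-LIF left of control, with the group mean and SD beside the points. Every anti-LIF point lies below every control point for the 4 ligands, while the Ccr2 value of control replicate 4 (7.17) lies below all anti-LIF mice.

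Ccl2, the main CCR2 ligand, had log2 levels of 8.20, 9.19, 8.03 and 8.07 in anti-LIF replicates 5 to 8, against 9.70, 9.84, 10.46 and 10.07 in control replicates 1 to 4. Replicate 6 was the highest of the treated mice and still lay below the lowest control. The means were 8.37 ± 0.55 in anti-LIF and 10.02 ± 0.33 in control mice (SD, n = 4 each), a log2 fold change of -1.64 (standard error 0.25, 95% interval -2.20 to -1.09, limma adjusted p = 0.0040). Permuting the 8 arrays over all 70 splits into groups of 4 gave an exact two-sided p = 0.029, the smallest possible. This test, like every exact test below, ignores any pairing of the mice.

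Ccl7, which encodes a ligand of several receptors besides CCR2, had the largest change of the 5. Its log2 levels were 6.37, 6.35, 6.45 and 6.21 in anti-LIF mice, against 8.28, 8.88, 9.71 and 8.82 in control mice. The treated mice lay within a narrow band, with a mean of 6.34 ± 0.10, against 8.93 ± 0.59 in control mice (SD, n = 4 each). The log2 fold change was -2.58 (standard error 0.24, 95% interval -3.11 to -2.05, limma adjusted p = 5.8e-04).

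Ccl8, whose product is known to act through CCR8 in the mouse, had log2 levels of 4.48, 3.81, 4.01 and 4.26 in anti-LIF mice, against 5.12, 5.52, 7.32 and 5.62 in control mice. Control replicate 3 stood above the other controls. The means were 4.14 ± 0.29 in anti-LIF and 5.90 ± 0.98 in control mice (SD, n = 4 each), and the log2 fold change was -1.75 (standard error 0.38, 95% interval -2.59 to -0.92, limma adjusted p = 0.0164). The treated mean lay below the median gene of the anti-LIF arrays (4.63). No background level could be set from the values, so whether Ccl8 was detected in treated mice was not tested.

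Ccl12, a further CCR2 ligand found in the mouse, had log2 levels of 4.79, 6.36, 5.68 and 5.70 in anti-LIF mice, against 6.59, 7.28, 8.95 and 7.41 in control mice. The highest treated mouse, replicate 6, came close to the lowest control, replicate 1. The means were 5.63 ± 0.65 in anti-LIF and 7.56 ± 1.00 in control mice (SD, n = 4 each). The log2 fold change was -1.92 (standard error 0.44, 95% interval -2.89 to -0.95, limma adjusted p = 0.0203).

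Ccr2, the receptor gene, had log2 levels of 7.38, 7.29, 7.29 and 7.37 in anti-LIF mice, against 7.66, 7.65, 8.22 and 7.17 in control mice. The groups overlapped, and the control mice were spread more widely, with means of 7.33 ± 0.05 in anti-LIF and 7.67 ± 0.43 in control mice (SD, n = 4 each). The log2 fold change was -0.34 (standard error 0.19, 95% interval -0.75 to 0.08, limma adjusted p = 0.280), and the exact two-sided permutation test gave p = 0.143. The value depended on single control mice and on the scaling. Without control replicate 4 it was -0.51 and passed the threshold (limma adjusted p = 0.091), and without control replicate 3 it was -0.16. A second quantile normalization gave -0.19 (limma adjusted p = 0.605).

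The ligands were then set against Ccr2 on the same array. Values on the 2 features are not comparable as amounts, so only the change of the difference between groups is read. Relative to Ccr2, Ccl2 changed by -1.31, Ccl7 by -2.24, Ccl8 by -1.42 and Ccl12 by -1.59 on the log2 scale. The groups did not overlap for Ccl2, Ccl7 and Ccl8 (exact two-sided permutation p = 0.029 each, n = 4 arrays per group), as was the case in the same direction for 1.65% of the 22179 genes other than Ccr2. Ccl12 overlapped, with -2.59 to -0.93 in anti-LIF and -1.07 to 0.73 in control mice (exact permutation p = 0.057, n = 4 each). Over the 4 tests, Benjamini-Hochberg adjustment gave 0.038 for the first 3 and 0.057 for Ccl12. These tests ignore pairs. Within the 4 pairs most likely used by the study, every ligand was lower relative to Ccr2 in 4 of 4, by -0.56 to -2.34 for Ccl12, and Ccr2 itself was lower in 3 of 4.

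**Figure D2:**
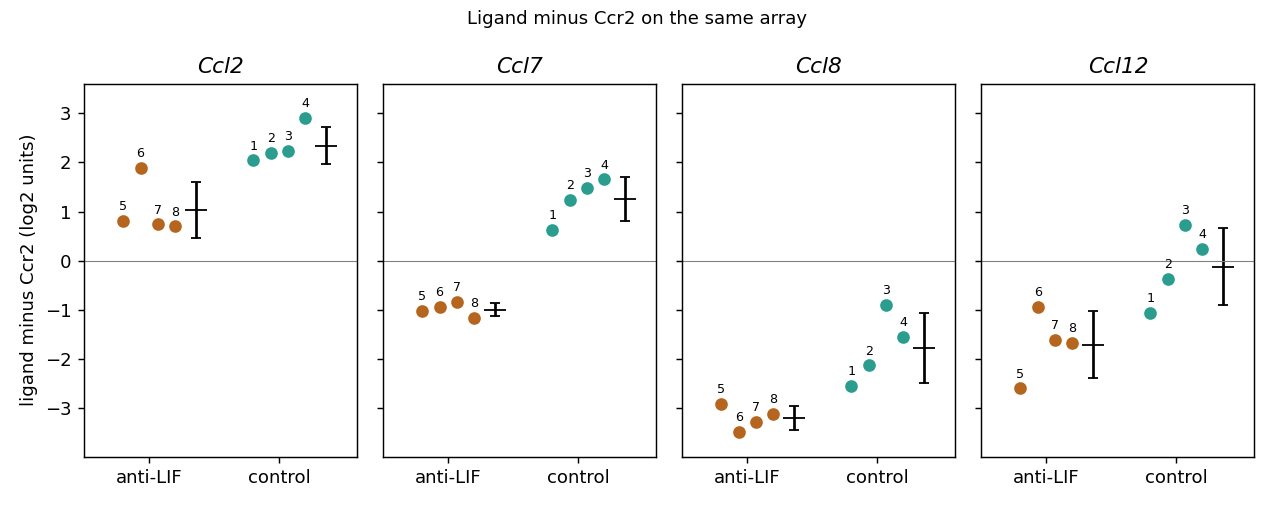
Log2 level of each ligand minus that of Ccr2 on the same array, 1 point per mouse with its replicate number, anti-LIF left of control, with the group mean and SD. Ccl7 lies between -1.17 and -0.84 in anti-LIF mice and between 0.63 and 1.66 in control mice, and Ccl12 is the ligand whose groups overlap.

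The measured changes of the ligands were then set against each other. Ccl7 fell further than Ccl2, by 0.94 on the log2 scale (exact two-sided permutation p = 0.029, n = 4 arrays per group). Part of this gap rested on anti-LIF replicate 6. Without that mouse the log2 fold change was -1.91 for Ccl2 and -2.58 for Ccl7. The other 5 ligand pairs were not separated by the test. The change of Ccl7 differed from that of Ccl8 by -0.83 (exact permutation p = 0.086) and from that of Ccl12 by -0.66 (exact permutation p = 0.143). The differences were 0.11 for Ccl2 minus Ccl8, 0.28 for Ccl2 minus Ccl12 and 0.17 for Ccl8 minus Ccl12. Together with 4 pairs of Ccl11 below, 10 pairs were compared after their values had been seen, and the smallest adjusted p over them was 0.0571.

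Within groups, the members varied together to different degrees. Control replicate 3 was the highest control mouse for all 5 genes, by deviations from the control mean of 0.44 for Ccl2 up to 1.43 for Ccl8. Over the 8 arrays, deviations from the group means correlated at r = 0.897 for Ccl7 with Ccl8 and 0.809 for Ccl7 with Ccl12. With Ccr2 the coefficients were 0.742 for Ccl8, 0.624 for Ccl7, 0.514 for Ccl12 and 0.227 for Ccl2. These are descriptions of 8 arrays, in which control replicate 3 has a large part. Among treated mice, replicate 6 was highest for Ccl2 and Ccl12 and lowest for Ccl8.

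**Figure D3:**
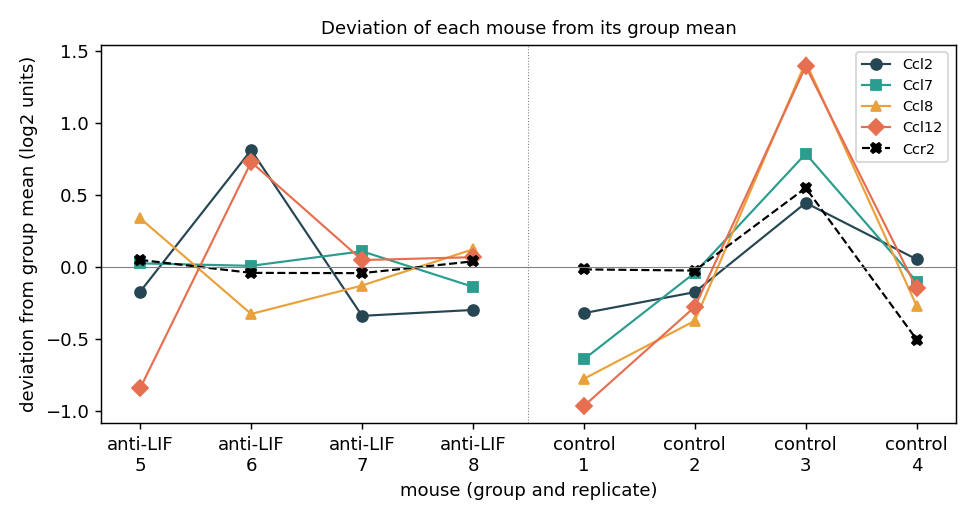
Deviation of each mouse from its group mean in log2 units for the 5 genes, with anti-LIF replicates 5 to 8 left of control replicates 1 to 4, and lines joining the points of a gene only as a guide. Control replicate 3 lies above 0 for every gene, and anti-LIF replicate 6 lies above 0 for Ccl2 and Ccl12 and below 0 for Ccl8.

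The lower levels in the Ccl cluster were not shared by all its genes. Of 7 other Ccl genes listed there, 3 were lower, 0 were higher and 4 did not pass the test, with a median log2 fold change of -0.92. Over all genes 11.0% were lower. Ccl3, which encodes an attractant of macrophages and lymphocytes, averaged 6.50 ± 0.16 in anti-LIF and 9.04 ± 0.62 in control mice (SD, n = 4 each). Its log2 fold change was -2.53 (limma adjusted p = 6.6e-04), near that of Ccl7. Ccl9 and Ccl6, related chemokines of rodents, had log2 fold changes of -1.35 (limma adjusted p = 0.0045) and -0.97 (limma adjusted p = 0.0089). Ccl4, the neighbour of Ccl3, had -0.92 and was not called (limma adjusted p = 0.116). In chromosome order the 3 lower genes lay beyond Ccl1 and Ccl5. The genes next to the ligands in that order, Ccl11 and Ccl1, were not called.

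Ccl11, an eosinophil attractant gene that lies between Ccl7 and Ccl12, had a mean of 4.92 ± 0.05 in anti-LIF and 4.52 ± 0.26 in control mice (SD, n = 4 each). Its log2 fold change was 0.40 and was not called (limma adjusted p = 0.1001). The change of Ccl11 differed from that of Ccl7 by 2.98 and from that of Ccl12 by 2.33 on the log2 scale, and from those of Ccl2 and Ccl8 by 2.05 and 2.16 (exact two-sided permutation p = 0.029 each, n = 4 arrays per group). Ccl11 was singled out after its values were seen. Ccl1, a CCR8 ligand gene, and Ccl5, a T cell attractant gene, had log2 fold changes of 0.08 and 0.39 and were not called. In control mice Ccl11 and Ccl1 (3.56) averaged below the median gene of those arrays (4.57), and Ccl5 (6.94) above it. Low levels leave less room for a fall, and whether Ccl11 and Ccl1 were detected was not tested.

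**Figure D4:**
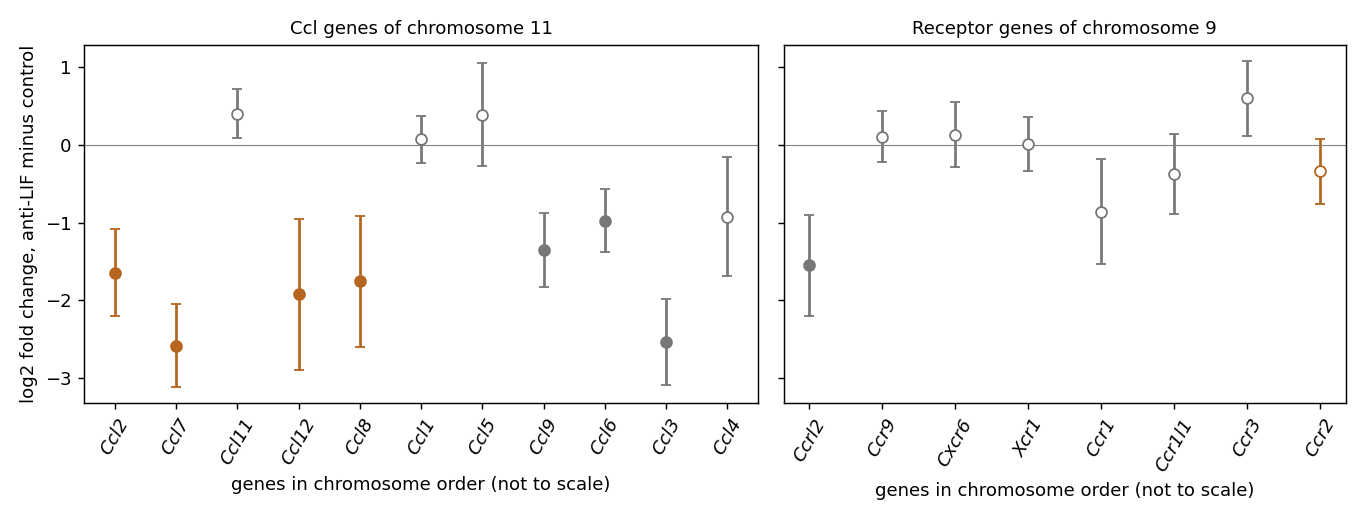
Log2 fold change, anti-LIF minus control, with 95% limma intervals for the Ccl genes of chromosome 11 and the receptor genes of chromosome 9, in chromosome order and not to scale, with the 5 CCR2 axis genes in orange and filled points for an adjusted p under 0.1. Ccl11 (0.40) lies between the lower genes Ccl7 (-2.58) and Ccl12 (-1.92), and Ccrl2 (-1.55) is the filled point among the receptors.

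Beside Ccr2 on chromosome 9, 1 of 7 measured receptor genes was lower and 0 were higher, with a median log2 fold change of 0.01. That count is near the 11.0% of all genes that were lower. The lower receptor gene was Ccrl2, which encodes an atypical receptor that binds chemerin without signalling. It averaged 5.88 ± 0.54 in anti-LIF and 7.42 ± 0.54 in control mice (SD, n = 4 each), a log2 fold change of -1.55 (limma adjusted p = 0.0095). Of the other receptors for these ligands, 0 of 5 measured were called. Ccr1, which binds CCL7, had a log2 fold change of -0.86, just outside the threshold (limma adjusted p = 0.1002), and was called with the mice paired (limma adjusted p = 0.039). Ccr3 had 0.60, Ccr8 -0.08, and the scavenging receptors Ackr1 and Ackr2 had 0.12 and 0.11. Ccr3, Ccr8, Ackr1 and Ackr2 averaged below the median gene in both groups, and whether they were detected was not tested.

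Downstream of the receptor, 7 of 15 measured genes for signal transduction from Ccr2 were lower and 0 were higher, with a median log2 fold change of -0.36. In the same fit 11.0% of all genes were lower, and 20.6% of those above the median level. The 7 lower genes encode the G protein subunits Gnai3 (-0.33) and Gnb1 (-0.50), the phospholipase Plcb3 (-0.36), the PI3-kinase subunit Pik3r5 (-0.66), the receptor kinase Grk3 (-0.65) and the small GTPases Rac1 (-0.57) and Rhoa (-0.46). Gnb1 and Rac1 were lower under all 18 alternative settings. The calls of Gnai3, Plcb3 and Pik3r5 were lost under 10 to 12 of them, those of Gnai3 and Plcb3 also with the mice paired (limma adjusted p = 0.171 and 0.188). Rhoa, read by 3 features, lost its call with each feature on its own and with the brightest feature. Grk3 was called in 13 of the 17 settings that held it.

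Among factors known to act on Ccl2 transcription, 3 of 6 measured genes were lower and 0 were higher, with a median log2 fold change of -0.53. Rela, the NF-kB subunit p65, had -0.49 (limma adjusted p = 0.0224). Fos, a subunit of AP-1, had -0.95 (limma adjusted p = 0.0191), and Sp1, a general promoter factor, had -0.57 (limma adjusted p = 0.0167). Jun (-0.62), Cebpb (0.28) and Stat3 (0.17), the factor activated by LIF signalling, were not called, but Jun was with the mice paired (limma adjusted p = 0.072). Nfkb1 was not analysed here.

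Of 12 genes for cytokines that induce the ligands and their receptors, 2 were lower and 0 were higher, with a median log2 fold change of -0.33. Over all genes the lower share was 11.0%. Both lower genes encode the interferon-gamma receptor. Ifngr1 averaged 6.94 ± 0.24 in anti-LIF and 8.02 ± 0.35 in control mice (SD, n = 4 each), with a log2 fold change of -1.08 (limma adjusted p = 0.0061), and Ifngr2 had -0.55 (limma adjusted p = 0.0260). The inducers Il1b (-0.68) and Tnf (-0.44) were not called. Over these lists of receptors, signalling genes, cluster neighbours, factors and cytokines, 16 of 50 measured genes were lower and 0 higher, with a median of -0.35. Of the 38 that lay above the median level, 15 were lower, against the 20.6% of all genes there.

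**Figure D5:**
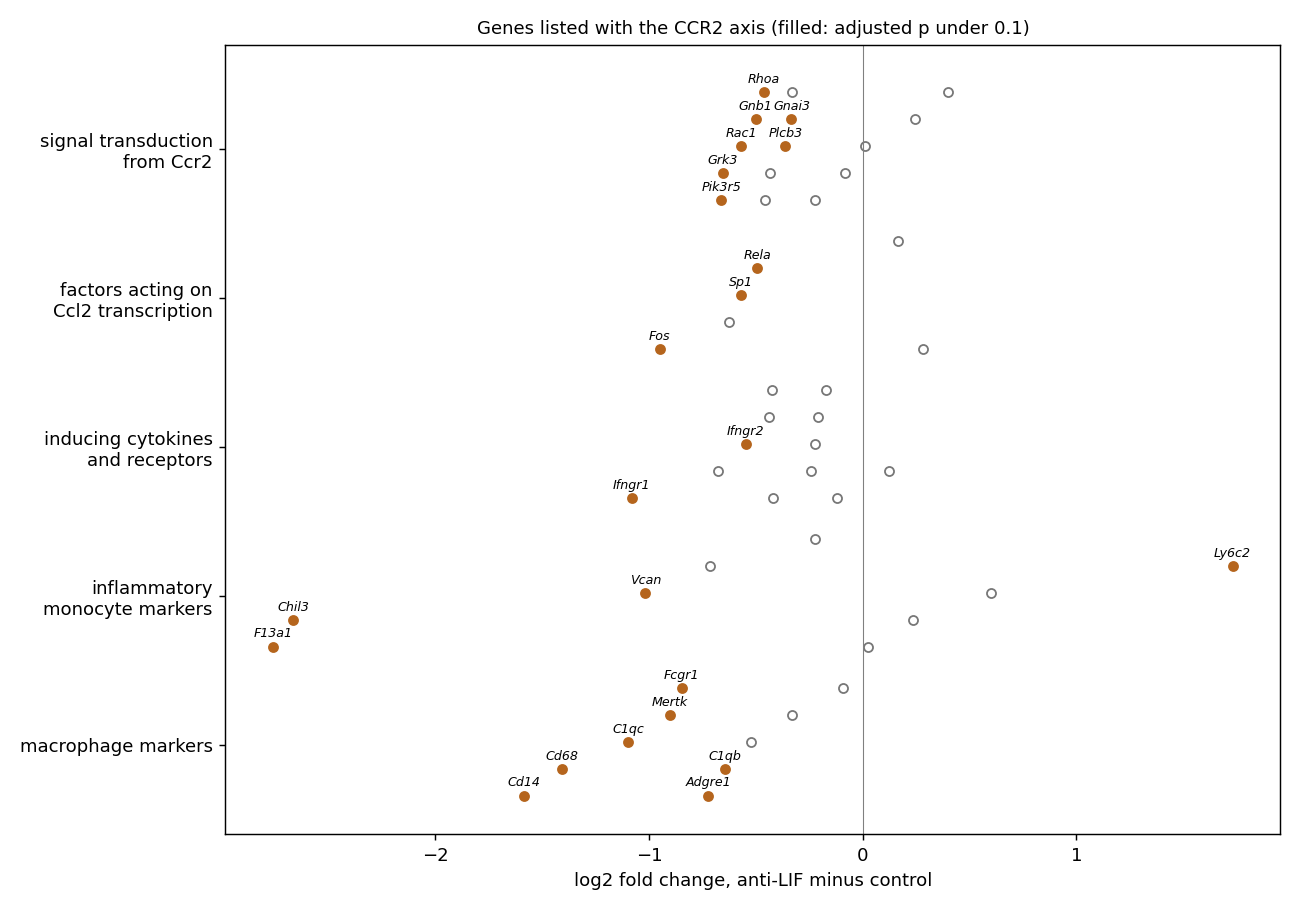
Log2 fold change, anti-LIF minus control, of single genes in 5 lists, with filled, named points for an adjusted p under 0.1 from limma and open points for the rest, and vertical spread within a list only to separate points. Filled points lie left of 0 in all 5 lists, except Ly6c2 (1.73) among the monocyte markers.

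Markers of the cells that carry CCR2 did not move in 1 direction. Of 9 measured markers of inflammatory monocytes, 3 were lower, 1 was higher and 5 were not called. Over all genes 11.0% were lower and 5.79% higher, and 20.6% were lower among those above the median level. Ly6c2, which encodes the surface protein Ly6C of these cells, averaged 6.94 ± 1.10 in anti-LIF and 5.21 ± 0.27 in control mice (SD, n = 4 each), with a log2 fold change of 1.73 (limma adjusted p = 0.0255). It has a near-identical neighbour, Ly6c1, from which an array feature may not tell it apart. F13a1, which encodes a clotting factor subunit, and Chil3, a chitinase-like gene of alternatively activated macrophages, had log2 fold changes of -2.76 and -2.67 (limma adjusted p = 1.2e-04 and 0.0030). The mean log2 level of the 9 markers lay between 6.30 and 7.11 in anti-LIF and between 6.78 and 7.71 in control mice. In bulk samples, fewer cells of a type and less RNA per cell cannot be told apart.

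Between the groups, most macrophage markers were lower, as the ligands were. Of 10 measured, 7 were lower and 0 were higher, against 20.6% lower among all genes above the median level. The lower ones included the lipopolysaccharide co-receptor gene Cd14 (-1.58), the lysosomal marker Cd68 (-1.41) and the F4/80 gene Adgre1 (-0.72). Csf1r (-0.33), C1qa (-0.52) and Lyz2 (-0.09) were not called. The mean log2 level of the 10 markers was 8.06, 7.96, 8.21 and 8.28 in anti-LIF replicates 5 to 8. It was 8.72, 8.95, 9.46 and 8.64 in control replicates 1 to 4, and control replicate 3 was again the highest. Within the treated group the markers did not follow all ligands. Replicate 6 had the lowest marker mean and the highest Ccl2 and Ccl12. All 10 markers averaged above the median gene in both groups. Itgam, the gene of CD11b itself, averaged 8.49 ± 0.22 in anti-LIF and 8.67 ± 0.36 in control mice (SD, n = 4 each) and was not called (limma adjusted p = 0.59).

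Set against the mean of the 10 macrophage markers on the same array, which itself changed by -0.81, Ccl7 differed by a further -1.77, with no overlap between the groups (exact two-sided permutation p = 0.029, n = 4 arrays per group). The remaining differences were -0.83 for Ccl2 (exact permutation p = 0.114), -0.94 for Ccl8 (exact permutation p = 0.057) and -1.11 for Ccl12 (exact permutation p = 0.086), each with overlapping groups. On the same scale Ccr2 was higher by 0.48, without overlap (exact permutation p = 0.029, n = 4 each). These 5 comparisons were chosen after the levels had been seen, and the smallest adjusted p over them was 0.0714.

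Genes of other cell types did not move in 1 direction, and levels of different lists are not comparable as amounts. The 11 genes of tumor and mesothelial cells had mean log2 levels of 8.49 to 8.76 in anti-LIF and 8.17 to 8.69 in control mice, although the cells were selected for CD11b. In this list Muc16 (1.88), Upk1b (0.78) and Lrrn4 (0.74) were higher, and Krt18 (-0.69) and Krt19 (-0.40) were lower. Of 11 T and NK cell genes, Nkg7 (0.85) and Cd8a (0.76) were higher, with mean levels over the list of 4.03 to 4.66 in anti-LIF and 3.82 to 4.04 in control mice. Of 10 neutrophil genes, S100a8 (-1.32) and Mmp8 (-1.25) were lower, 0 were higher and 8 were not called, against 11.0% of all genes lower. Ly6g (0.55) and Retnlg (0.66) were among those not called, and Mmp8 averaged 3.39 in anti-LIF mice, below the median gene. The part of these cell types in the levels of the ligands and of Ccr2 was not tested.

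By rule, the 3 genes most like each member over the 8 arrays were named from 10133 genes above the median level. They were Rit1 (Pearson's r = 0.992), Abhd5 and Ltv1 for Ccl2. For Ccl7 they were Tbc1d20 (0.995), Nceh1 and Ccl3, and for Ccl8 Mcoln2 (0.989), Myadm and Zbtb6. Ccl12 was closest to Blvrb (0.985), Fuca2 and Gorasp2, and Ccr2 to Selplg (0.973), the gene of a selectin ligand of leukocytes, Ccdc12 and Stard8. The arrays form 2 groups, which shapes these coefficients for the ligands. For deviations from the group means, r was 0.956 for Rit1, 0.982 for Tbc1d20, 0.969 for Mcoln2, 0.965 for Blvrb and 0.962 for Selplg. The genes were picked as the highest of 10133 over 8 arrays, and control replicate 3 was the highest control for every member.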

How the data were processed

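The authors deposited RMA-normalized log2 intensities of 41345 features on 8 arrays, 1 per mouse. RMA was run by Progenika, and the processing notes name R 3.1.2. For the RMA software, its library files and the genome build, nothing is given in the sources used here. The deposited arrays did not share 1 distribution: the SD over features was 1.95 to 1.97 in anti-LIF and 2.02 to 2.07 in control arrays, and the median 4.52 to 4.57 in anti-LIF and 4.38 to 4.50 in control arrays.

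The 23521 features that carry 1 symbol gave 22180 genes, by the mean over features of a symbol. Those carrying several symbols (1820) or none (16004) were not used, and low values were kept. Groups were compared with limma 3.58.1 (lmFit, eBayes) in R 4.3.3 with Benjamini-Hochberg adjustment over all genes and the study's threshold of 0.1. Single values were also compared by an exact two-sided permutation test over 70 assignments, whose smallest p is 0.029. The main fit and the exact tests ignore pairs, although the study's methods name paired samples. Each array is labelled as a separate mouse. Precision is limited by how few arrays there are (standard error of a log2 fold change 0.156 in the median over genes). The limma fit planned for gene minus Ccr2 is not used, because all genes then share the error of Ccr2 and the prior degrees of freedom were infinite. The exact test stands in its place.

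Members and lists (151 genes, 140 of them measured) were chosen with earlier results of these data known. Named were the members, called list genes, first or largest marker genes, and the 3 genes most like each member among 10133 named genes above the median level. Genes named beyond this were chosen after their values were seen. The methods mention paired samples without naming pairs, and the labels share no numbers between groups. Of the 24 possible pairings, 1 gave the study's P-values with a median log10 distance of 2.98e-07 (0.0928 for the second closest) and is most likely the one used (control replicates 1 to 4 with anti-LIF replicates 5 to 8 in order). Since no label gives it, it was run as an alternative. On simulated data for the anti-LIF comparison with 22180 genes, 80% of 100 genes changed by 1 and 100% of 100 changed by 2 on the log2 scale were recovered, with 13 false calls. Alternatives were the pairing, each array left out, a threshold of 0.05, array weights, a trended robust eBayes, median centring, a second quantile normalization, single or brightest features in place of gene means, only genes above the median level, and only genes other than small RNAs and unnamed models. Promoter windows were aligned with Biopython 1.88, and figures were drawn with matplotlib 3.10.9.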

Additional observations from a re-analysis of the deposited data

Results flagged for a closer look

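Of 132 groups of 4 mice tested for a value far from the other 3, 10 stood out, where chance gives about 1 in 20. Ccl2 of anti-LIF replicate 6 was 9.19, against 8.03 to 8.20 in the other treated mice, and without this mouse the log2 fold change of Ccl2 was -1.91. Ccl2 minus Ccr2 of the same mouse was 1.89, against 0.70 to 0.82 in the others. The signalling gene Rac1 was high in anti-LIF replicate 6 (10.08) and in control replicate 3 (10.74), and it was lower after anti-LIF under every alternative run. Control replicate 3, the highest control for all 5 CCR2 axis genes, was also high for Abhd5 (6.51), Mcoln2 (5.53) and Myadm (7.78), genes named for their likeness to Ccl2 or Ccl8. Mcoln2 was high in anti-LIF replicate 5 (4.64). The patrolling monocyte marker Ace was low in anti-LIF replicate 8 (5.53), and the mesothelial marker Upk1b was high in control replicate 1 (9.19).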

How the results depend on the processing

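Under the 18 alternatives, Ccl2, Ccl7, Ccl8 and Ccl12 passed the threshold as lower in each, and the highest adjusted p from limma was 0.015, 0.0035, 0.047 and 0.051 in that order. With each array left out in turn, the log2 fold change ranged from -1.91 to -1.50 for Ccl2, -2.80 to -2.32 for Ccl7, -2.01 to -1.28 for Ccl8, -2.25 to -1.46 for Ccl12 and -0.51 to -0.16 for Ccr2. Ccr2 passed the threshold without control replicate 4 and under no other alternative, and was -0.19 after a second quantile normalization. Thus 4 to 5 members were lower and 0 higher. Relative to Ccr2 the ranges were -1.59 to -1.12 for Ccl2, -2.45 to -2.11 for Ccl7, -1.67 to -1.12 for Ccl8 and -1.90 to -1.29 for Ccl12. With an array left out, the exact permutation p stayed at 0.029 for Ccl7. It rose to as much as 0.057 for Ccl2 and Ccl8 and 0.086 for Ccl12. Of the 50 genes listed with the axis, 12 to 17 were lower and 0 to 1 higher with an array left out. The count of higher ones, 0 in the reported fit, was 2 among genes above the median level, 2 after quantile normalization again, 2 with trend and robust settings, 1 with array weights and 3 without small RNA and unnamed symbols. With the pairing as a block, the log2 fold changes were as without it and no member's call changed (Ccl8 -1.75, adjusted p = 0.026 from limma). Of the listed genes, Ccr1 and Jun were gained and Gnai3 and Plcb3 lost, and 1922 genes were lower over the whole array, against 2448 without the block. No signal over background could be computed from these values, which limits what can be said of Ccl8 after anti-LIF.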

Other observations

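Among patrolling monocyte markers, Ace (-1.46) and the nuclear receptor gene Nr4a1 (-1.30) were lower and Treml4 (0.57) was higher after anti-LIF, while Cx3cr1, the fractalkine receptor gene, had a log2 fold change of -0.26 and was not called. Of 10 genes of resident peritoneal macrophages, Lyve1 (-1.49) and Tgfb2 (-0.75) were lower and Cd5l (1.07) was higher, and Gata6, the defining transcription factor of these cells, had -0.38 and was not called (adjusted p = 0.129 from limma). Of 7 dendritic cell genes, the transcription factor gene Zbtb46 was higher (0.62) and Dpp4 lower (-0.80). Of 6 genes of eosinophils, mast cells and basophils, the mast cell gene Cpa3 was higher (0.46) and 5 were not called. Cpa3 averaged 3.30 in anti-LIF and 2.85 in control mice, below the median gene of both groups. For B cells 0 of 5 genes and for fibroblasts 0 of 6 passed the test.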
